A study of Mus musculus with 23 samples.

Results

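The immediate early and activator protein 1 (AP-1) genes described here are the 10 rows of the deposited expression table with the symbols Fos, Fosb, Fosl1, Fosl2, Jun, Junb, Jund, Egr1, Nr4a1 and Nr4a2, out of 23284 genes in all. All 10 symbols were found, and each reached 1 FPKM in 2 or more of the single cells. FPKM is the number of sequenced fragments scaled by transcript length and by the fragments mapped in the library. Fold differences below use log2 FPKM with values under 1 set to 1.

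The study sequenced 16 single mouse mesenchymal stem cells (mMSC1 to mMSC16) and 5 single HL-1 cardiomyocytes (HL1cm1 to HL1cm5), with 1 bulk population control of each cell type (mMSC-PC and HL1cm-PC). HL-1 is a mouse atrial cardiomyocyte line, and all 23 libraries carry the strain label C57BL/6J. The mMSCs were purchased bone marrow cells of male mice at passages 6 to 11, grown in serum-containing alpha-MEM, while the HL1cm were at passages 70 to 85 in Claycomb medium with serum and norepinephrine. Cells were trypsinised and captured in a Fluidigm C1 chip for cells of 17 to 25 micrometres, with the HL1cm marked by a green tracker dye, and the labels name no treatment. Cell type, medium, passage and dye therefore differ together between the groups and cannot be told apart. No separate cultures were named, so each cell type was 1 sample, no test was made between them, and the spread given is that between cells.

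AP-1 is a dimeric transcription factor built from 1 protein of the Fos family and 1 of the Jun family, or from a pair of Jun proteins. Fos, Fosb, Egr1 and Nr4a1 are textbook immediate early genes, which are transcribed briefly and without new protein synthesis after serum, growth factors, hormones or cell handling. The Fos-related genes Fosl1 (Fra-1) and Fosl2 (Fra-2) are known for later and longer expression, often in mesenchymal and bone cells, and the Fos-related proteins lack the strong transactivation domain of Fos. Egr1 is a zinc finger factor, and Nr4a1 and Nr4a2 are orphan nuclear receptors with a rapid response.

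The Fos family carried the clearest difference in these cells, so the upstream sequences of its members are shown first. The RefSeq promoter table for GRCm38.p6 (mm10) held 8 of the 10 genes, and the 250 bases before each RefSeq transcription start were searched on both strands. These starts need not be those of the GENCODE gene bounds printed below. The windows of Fosl2 and Nr4a1 lie inside those bounds. That of Jund ends at base 70697738, before the GENCODE start at 70698949. Capitals mark the letters TGACG, the core shared by cyclic AMP response elements, and TATAAA, the TATA box. The Fos sequence is chr12:85473640-85473889 on the plus strand, the Fosb sequence is chr7:19310046-19310295 on the minus strand, and the Fosl2 sequence is chr5:32136222-32136471 on the plus strand.
Fos: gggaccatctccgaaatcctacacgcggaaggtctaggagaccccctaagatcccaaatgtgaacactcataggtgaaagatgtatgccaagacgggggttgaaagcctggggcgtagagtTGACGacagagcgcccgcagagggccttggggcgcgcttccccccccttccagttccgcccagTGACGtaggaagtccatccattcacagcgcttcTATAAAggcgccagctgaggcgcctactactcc
Fosb: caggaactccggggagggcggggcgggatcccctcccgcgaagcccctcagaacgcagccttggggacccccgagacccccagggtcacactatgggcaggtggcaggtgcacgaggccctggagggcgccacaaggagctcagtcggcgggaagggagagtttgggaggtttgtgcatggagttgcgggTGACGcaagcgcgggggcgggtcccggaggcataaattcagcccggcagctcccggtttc
Fosl2: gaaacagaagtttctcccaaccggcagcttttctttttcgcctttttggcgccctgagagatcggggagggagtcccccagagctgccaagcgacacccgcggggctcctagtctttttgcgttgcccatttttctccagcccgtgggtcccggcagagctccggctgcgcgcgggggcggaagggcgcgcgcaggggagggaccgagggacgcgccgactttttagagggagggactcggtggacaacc
The Fos window held TGACG at 2 positions, -129 and -66, and TATAAA at position -33, where -1 is the base before the start and a position is that of the motif's first letter. The Fosb window held 1 TGACG, at -60. The Fosl2 window, which lies inside the GENCODE gene, held neither motif. TGACG was found in 5 of the 8 members with a sequence (Fos, Fosb, Junb, Nr4a1 and Nr4a2) and in 17.8% of 32851 promoters of the same length. The full palindrome TGACGTCA, which contains TGACG, was in 0 of the 8 and in 1.55% of all promoters. The AP-1 site TGANTCA (0 of 8, 6.75% of promoters) and the serum response CArG box (0 of 8, 1.47%) were not in these windows either. TATAAA was found in 2 of the 8, Fos and, on the other strand, Nr4a2, against 12.4% of promoters. These are matches of letters in a window and describe neither binding nor activity.

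The cells bore most markers of their labels. Of 10 mesenchymal markers, 9 could be compared, and 9 were at least 2-fold higher in mMSCs. The other, Thy1, was listed at 0 in every library, the mMSCs included. Of 9 cardiomyocyte markers, 9 were at least 2-fold lower in mMSCs. Summed cardiomyocyte marker FPKM was 0 to 65.4 in the mMSCs and 32948 to 60053 in the HL1cm. Among 11 macrophage markers, Ptprc, Emr1, Lyz2, Tyrobp, C1qa and C1qb were listed at 0 in all 16 mMSCs. Cd14 was above 0 in 15 mMSCs, Csf1r in 8, Itgam in 2, and Cd68 and Fcer1g in 1 each. The macrophage sum was 3.10 to 369 FPKM in mMSCs and 0 to 1.10 in HL1cm, and its part in the results below was not tested. Single cells had 5178 to 7241 genes at 1 FPKM or more and the population controls 9625 and 9881. Library depth is not in the deposited expression table. The paper lists aligned read pairs for each cell in its supplement. Those values had been seen when the estimate below was set up, but they are not reported here. An approximate estimate from the lowest values of long single-transcript genes gave 77625 fragments in mMSC9, the shallowest, to 358872 in the deepest single cell.

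Fos was the member that set the cell types apart. Fos (chromosome 12, bases 85473890 to 85477273, 4 exons) encodes the founding AP-1 subunit. It was at 148, 394, 60.6, 251 and 184 FPKM in HL1cm1 to HL1cm5, and at 147 FPKM in HL1cm-PC. It was listed at 0 in 15 of the 16 mMSCs, at 7.78 FPKM in mMSC15 and at 2.02 FPKM in mMSC-PC. The groups did not overlap, and the lowest cardiomyocyte was above the highest mMSC. The mean log2 difference, mMSC minus HL1cm, was -7.26, and 25 of the 11850 genes compared lay at or below it, Fos included. By the approximate depth, the value in mMSC15 stood for 1.70 fragments, those in HL1cm for 29.8 to 229, and the value in mMSC-PC for 1.23. Cells with Fos above 0 made up 6.25% of mMSCs (exact Clopper-Pearson 95% interval 0.158% to 30.2%) and 100% of HL1cm (47.8% to 100%). These intervals cover counting error only. Summed cardiomyocyte markers were 39.3 FPKM in mMSC15, inside the range of the other mMSCs.

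By the mean of the single cells, Fosb followed Fos in direction but not in separation. Fosb (chromosome 7, bases 19302696 to 19310051) encodes the second transactivating Fos protein. It was at 18.6, 47.1, 4.28, 2.57 and 2.92 FPKM in HL1cm1 to HL1cm5 and at 5.41 FPKM in HL1cm-PC. In mMSCs it was above 0 in 10 of 16 cells, with a median of 2.01 and a highest value of 17.4 FPKM, in mMSC6. The control mMSC-PC was at 6.06 FPKM, so the population controls had the opposite order, by a small margin. HL1cm1 and HL1cm2 were above all mMSCs, and the other 3 HL1cm lay inside the mMSC range. The difference was -1.49 on the log2 scale. Without HL1cm2 it was -0.84, and with libraries rescaled to equal sums -0.93, both short of 2-fold.

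Fosl2 showed the opposite order. Fosl2 (chromosome 5, bases 32135801 to 32157842) was the only member that reached 1 FPKM in all 16 mMSCs. Of the 10867 genes that reached it in 2 or more mMSCs, 19.7% did so in all. It ranged from 3.18 FPKM in mMSC7 to 54.6 FPKM in mMSC4 with a median of 12.7, and mMSC-PC was at 12.3 FPKM. In HL1cm it was listed at 0 in 3 cells and was at 7.16 FPKM in HL1cm2 and 5.85 FPKM in HL1cm5, with 3.46 FPKM in HL1cm-PC. These 2 cells lay within the lower part of the mMSC range, so the groups overlapped. The log2 difference was 2.76, the highest of the 10 members, and 571 of 11850 genes lay at or above it. With values under 10 FPKM set to 10 it was 0.75.

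Fosl1 (chromosome 19, bases 5447547 to 5455946) was above 0 in 11 of 16 mMSCs and at 0 in HL1cm-PC and in each of the 5 HL1cm. A count of 0 of 5 cells allows a share of up to 52.2% by the exact Clopper-Pearson interval. The approximation that a zero allows up to 3 counts gives 60%, and it is rough for so few cells. The mMSC median was 6.50 FPKM and the highest value 42.7 FPKM, in mMSC10, while mMSC-PC was at 11.1 FPKM. Its exons share 1163 of 1864 bases, or 62.4%, with Ccdc85b on the other strand, and the counting was not stated to use strand, so reads of the pair cannot be told apart. Ccdc85b was at 2.02 to 54.8 FPKM in all 16 mMSCs, at 32.0 FPKM in mMSC-PC, and listed at 0 in all 5 HL1cm. Over the 16 mMSCs, which share the overlapping reads, Fosl1 and Ccdc85b had a Spearman correlation of 0.75. The Fosl1 values are therefore uncertain, and the Fos family shares and sum, the 2-fold count, the spread and the correlations are also given without it. The choice to leave it out was made after the values were seen.

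**Figure D1:**
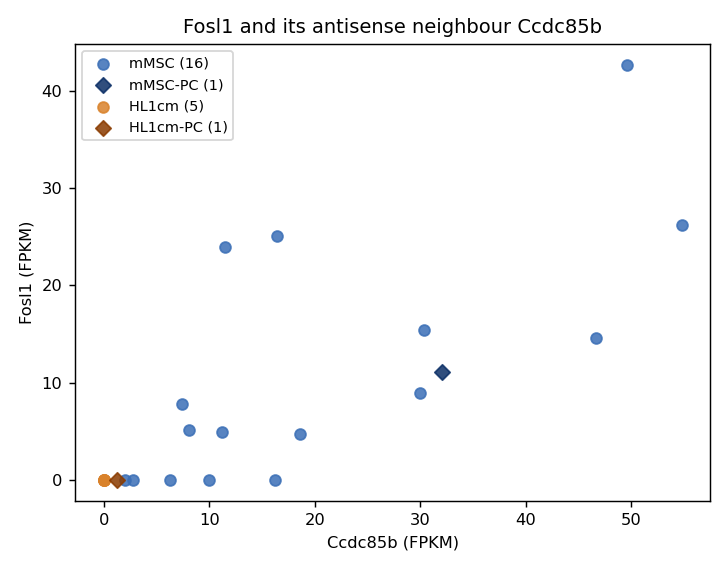
FPKM of Fosl1 (y axis) against FPKM of Ccdc85b (x axis), 1 point per library, circles for single cells and diamonds for population controls. The 5 HL1cm lie at 0 on both axes, and the 5 mMSCs with Fosl1 at 0 have Ccdc85b values in the lower part of the mMSC range.

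Fos held the largest share of the Fos family in each HL1cm, while no single gene led in all mMSCs. Fos made up 87.9% to 99.0% of the summed FPKM of the 4 Fos family genes in the 5 HL1cm, and 94.3% in HL1cm-PC. Fosl1 and Fosl2 together made up over 50% in 15 of 16 mMSCs, with a median of 93.5%, and 74.2% in mMSC-PC. The exception was mMSC15, at 49.3%, where Fos made up 31.2%. Taken alone, Fosl2 made up over 50% in 9 of 16 mMSCs, Fosl1 in 4, and Fos and Fosb in 0. With Fosl1 left out, Fosl2 made up over 50% in 12 of 16 mMSCs with a median of 89.9%. Fos still made up at least 87.9% in every HL1cm. Within mMSCs, the Fosl2 share ran from 14.1% to 100%, and Fosb reached 46.1% in mMSC6.

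**Figure D2:**
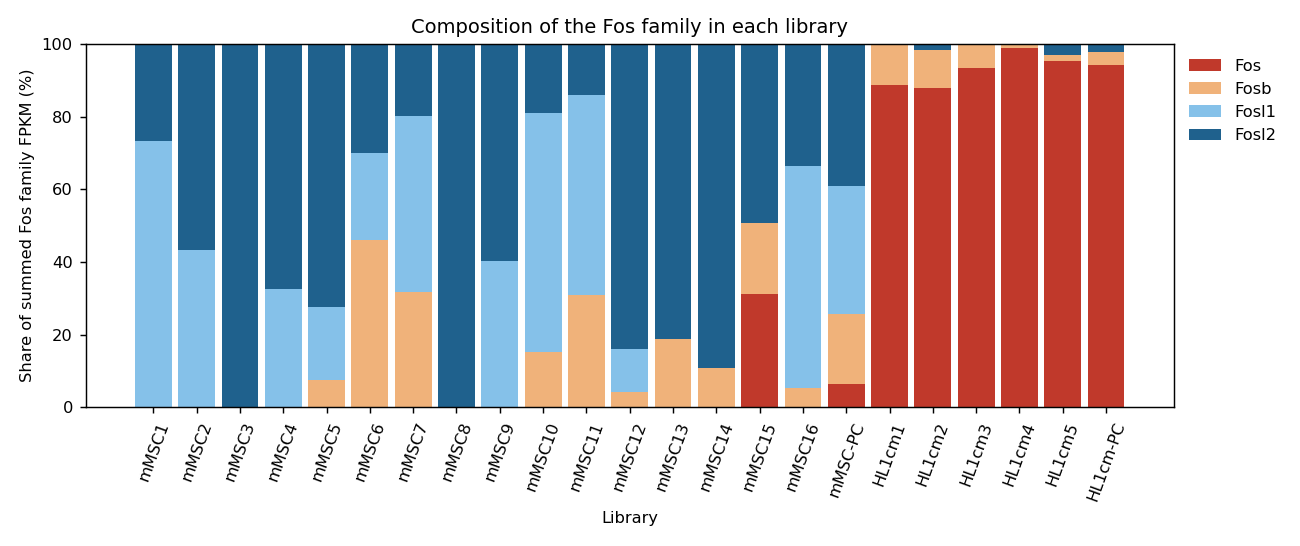
Share of the summed FPKM of Fos, Fosb, Fosl1 and Fosl2 held by each gene (y axis, percent) in each of the 23 libraries (x axis), as stacked bars. Fos fills 87.9% or more of each HL1cm bar and is visible in mMSC15 and mMSC-PC among the mMSC libraries.

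The summed Fos family level overlapped little between the cell types. It was 11.4 to 80.8 FPKM in mMSCs with a median of 35.2, and 64.9 to 449 FPKM in HL1cm with a median of 192. The population controls were at 31.4 FPKM (mMSC-PC) and 156 FPKM (HL1cm-PC). Without Fosl1 the mMSC sums were 5.36 to 54.6 FPKM with a median of 21.8, and those of HL1cm, which have none, were as before.

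The Jun family genes supply the obligate partners of the Fos proteins. At least 1 of the 3 was above 0 in 12 of 16 mMSCs and in 5 of 5 HL1cm, but each gene alone was listed at 0 in many cells. Junb (chromosome 8, bases 84974484 to 84978718, 1 exon), often an immediate early gene itself, was the highest of the 3 in the mMSCs. It was above 0 in 8 of 16 mMSCs, where it ranged from 15.1 FPKM to 174 FPKM in mMSC1, and mMSC-PC was at 40.4 FPKM. In HL1cm it was at 29.4 FPKM in HL1cm3, at 14.4 FPKM in HL1cm5 and listed at 0 in the other 3, with 31.0 FPKM in HL1cm-PC. No mMSC lay between 0 and 15.1 FPKM. By the approximate depth, 3 fragments of Junb stood for 4.62 to 21.4 FPKM over the mMSCs. Whether the zeros are missed transcripts was not tested. The groups overlapped, with a log2 difference of 0.91 that passed 2-fold in 6 of 12 alternative settings. It was 0.47 without HL1cm1, HL1cm2 or HL1cm4 and 1.69 without HL1cm3.

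Jun (chromosome 4, bases 95049034 to 95052222, 1 exon), the founding Jun subunit, was low in every library. It was above 0 in 6 of 16 mMSCs, with a highest value of 9.34 FPKM in mMSC14, and at 7.62 FPKM in mMSC-PC. HL1cm1 was at 4.50 FPKM, HL1cm2 at 15.2 FPKM, the other 3 were listed at 0, and HL1cm-PC was at 6.81 FPKM. HL1cm2 was also the cell with the most Fos, Fosb and Fosl2 among the HL1cm. The difference between cell types was -0.38 and passed 2-fold under none of the 12 alternatives tried.

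Jund (chromosome 8, bases 70698949 to 70700616, 1 exon), known as the constitutive Jun gene, was listed at 0 in 14 of 16 mMSCs and in both population controls. It was at 6.21 FPKM in mMSC6, 11.0 FPKM in mMSC12, 3.34 FPKM in HL1cm4 and 10.1 FPKM in HL1cm5. Jund has the transcript of highest GC content among the members, 67.1%, higher than 99.9% of the 10219 compared protein-coding genes with a GENCODE transcript. Its exon shares 877 of 1668 bases with Gm11175 on the other strand. Whether GC content or the overlap has a part in its zeros was not tested. In 2 mMSCs, mMSC3 and mMSC8, only 2 members were above 0.

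Egr1, which binds GC-rich promoters after growth factor signals, reached the highest value of the 10 genes. In HL1cm it was listed at 0 in HL1cm1, and was at 118, 16.2, 493 and 45.1 FPKM in HL1cm2 to HL1cm5. It was above 0 in 10 of 16 mMSCs, with a median of 7.81 and a highest value of 48.8 FPKM in mMSC6. The population controls were close to each other, at 27.9 FPKM in mMSC-PC and 35.6 FPKM in HL1cm-PC. HL1cm2 and HL1cm4 were above all mMSCs, and the other 3 HL1cm lay inside the mMSC range. The log2 difference was -2.44, between -3.70 and -1.47 over the alternatives.

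Nr4a1 (chromosome 15, bases 101254269 to 101274795), a nuclear receptor of the rapid response, was above 0 in 10 of 16 mMSCs, with a median of 5.69 FPKM and a highest value of 39.8 FPKM in mMSC15. In HL1cm it was at 61.9 FPKM in HL1cm1 and 18.1 FPKM in HL1cm4 and listed at 0 in the other 3. The population controls were at 42.2 FPKM (mMSC-PC) and 34.0 FPKM (HL1cm-PC). The difference was 0.31, and its sign differed between alternatives, from -0.24 to 2.46, with the highest value for medians in place of means. It was 1.30 without HL1cm1, the cell with the most Nr4a1, and -0.19 without HL1cm2, HL1cm3 or HL1cm5.

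Nr4a2 (chromosome 2, bases 57106830 to 57124003), its close relative, was above 0 in 9 of 16 mMSCs and in 1 of 5 HL1cm. The mMSC median was 1.11 FPKM, and mMSC15 was highest at 43.6 FPKM. HL1cm5 was at 2.02 FPKM, and the controls were at 11.8 FPKM (mMSC-PC) and 1.80 FPKM (HL1cm-PC). The difference was 1.08, past 2-fold in 8 of 12 alternatives. Without mMSC9 and mMSC15, the mMSCs with the fewest genes, it was 0.87. The cell mMSC15 thus held the only Fos value among mMSCs and the highest Nr4a1 and Nr4a2. It also had the second fewest genes at 1 FPKM or more, 5837, and the highest macrophage marker sum, 369 FPKM, and the part of either in its values was not tested.

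**Figure D3:**
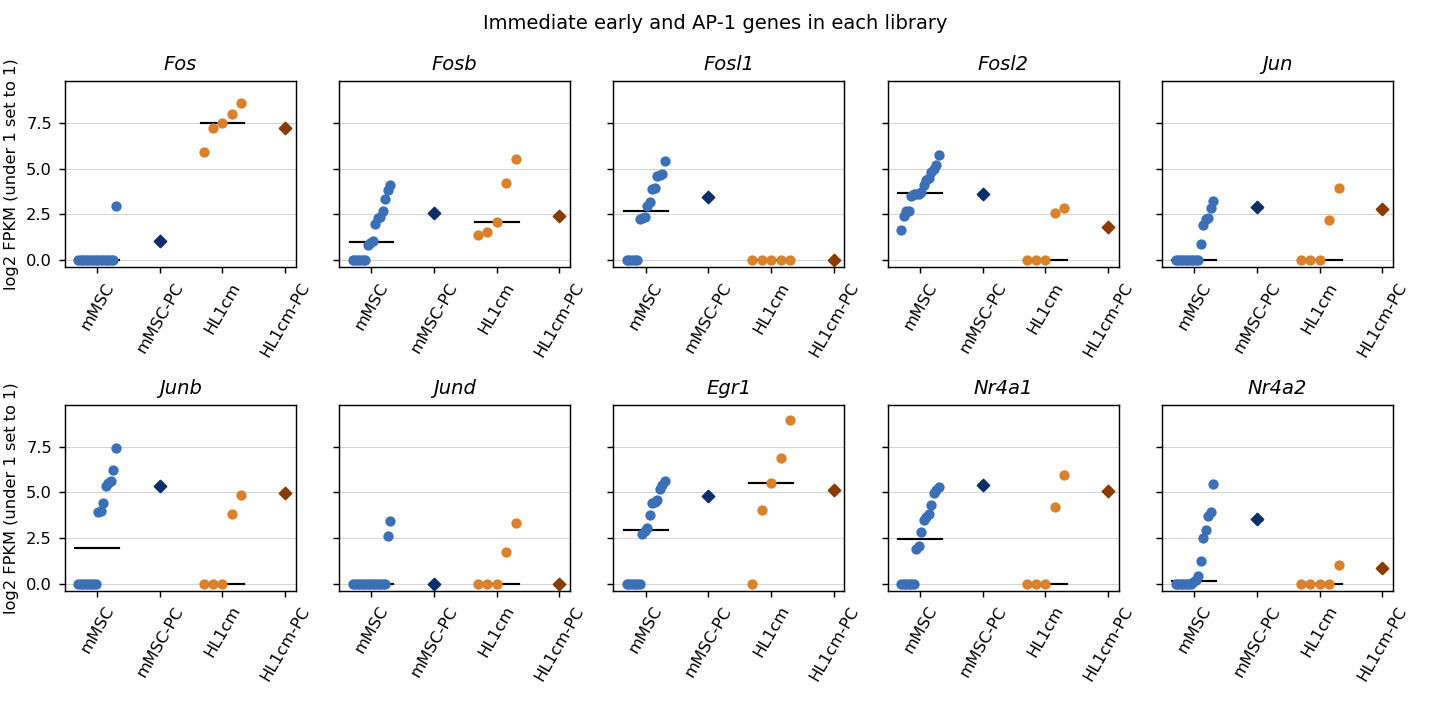
Log2 FPKM, with values under 1 set to 1 (y axis), of the 10 genes in the 16 mMSCs, mMSC-PC, the 5 HL1cm and HL1cm-PC (x axis). Circles are single cells ordered by value, diamonds are population controls and lines are medians. Fos is the 1 gene whose mMSC and HL1cm values do not overlap.

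Counted together, the 10 genes did not lean to either cell type. Of the 10, 3 were at least 2-fold higher in mMSCs (Fosl1, Fosl2 and Nr4a2), where 21.4% of 11850 genes were. Without Fosl1 there were 2 of 9. Another 3 were at least 2-fold lower (Fos, Fosb and Egr1), where 21.6% of genes were. None was higher in every mMSC than in every HL1cm (2.26% of genes), and 1, Fos, was lower in every mMSC (1.88% of genes). The median difference was -0.03 over the members and 0.08 over all genes compared. With values under 10 FPKM set to 10, 0 members were at least 2-fold higher in mMSCs, since most of their values lay under 10 FPKM.

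**Figure D4:**
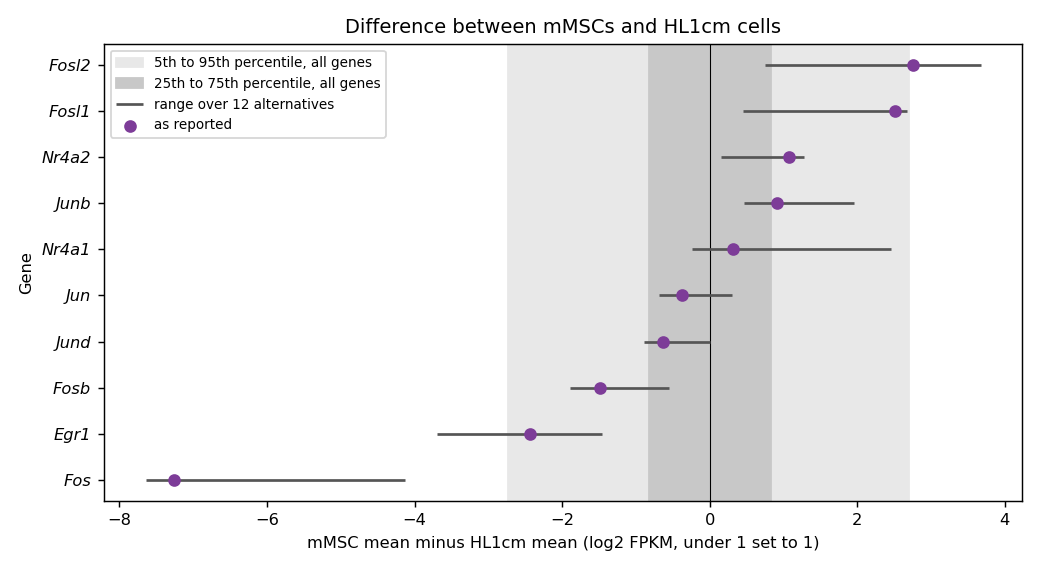
Difference in mean log2 FPKM, mMSC minus HL1cm (x axis), for each of the 10 genes (y axis). Points are the values reported, lines their range over 12 alternative settings, and grey bands the middle 50% and 90% of 11850 genes. Fos at -7.26 lies far outside the bands, and the bars of Nr4a1, Jun and Jund cross 0.

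Population controls held more members than most single cells. In mMSC-PC 9 of 10 were above 0 and in HL1cm-PC 8 of 10, against 2 to 9 in single mMSCs (median 5.5) and 4 to 7 in HL1cm. The whole table showed the same order. Genes at 1 FPKM or more numbered 9625 in mMSC-PC and 9881 in HL1cm-PC, against medians of 6869.5 in mMSCs and 6736 in HL1cm. Compared with the mean FPKM of the 16 cells, 4 members were at least 2-fold higher in mMSC-PC, where 27.1% of genes were. They were Jun (1.93 on the log2 scale), Nr4a1 (1.92), Nr4a2 (1.06) and Fos (1.02). The Fos value depends on the floor, since the mean of the cells was 0.486 FPKM and the control's 2.02 FPKM stood for 1.23 fragments by the approximate depth. Rescaling to equal sums gave 6 members, with Junb and Egr1 added, and log2(FPKM + 1) gave 3, without Nr4a2. The number at least 2-fold lower was 0, where 19.4% of genes were. Nr4a1 in mMSC-PC, at 42.2 FPKM, was above each of the 16 mMSCs. In these bulk samples, a larger number of cells with a transcript and more of it per cell cannot be told apart.

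In HL1cm-PC, 2 of the 9 members that could be compared were at least 2-fold higher than the mean of the 5 cells, Junb (1.82) and Nr4a1 (1.09), where 41.1% of genes were. At least 2-fold lower were 3 members, Egr1 (-1.92), Fosb (-1.48) and Jund (-1.43), where 13.6% of genes were. Without HL1cm4 the Egr1 mean of 134 FPKM was 44.8 FPKM and the difference -0.33, without HL1cm2 that of Fosb was -0.39, and without HL1cm5 Jund could not be compared. Nr4a1 differed by 0.77 without HL1cm2, HL1cm3 or HL1cm5. Without HL1cm2, Jun (2.60) and Fosl2 (1.24) were also at least 2-fold higher in HL1cm-PC. Fos differed by -0.49, and 4 of 5 cells were above the control. Gapdh was 551 FPKM in mMSC-PC and 157 to 319 FPKM in the mMSCs. With libraries scaled by Gapdh, 0 members were at least 2-fold higher in mMSC-PC and 2, Fosl1 and Fosl2, were at least 2-fold lower.

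**Figure D5:**
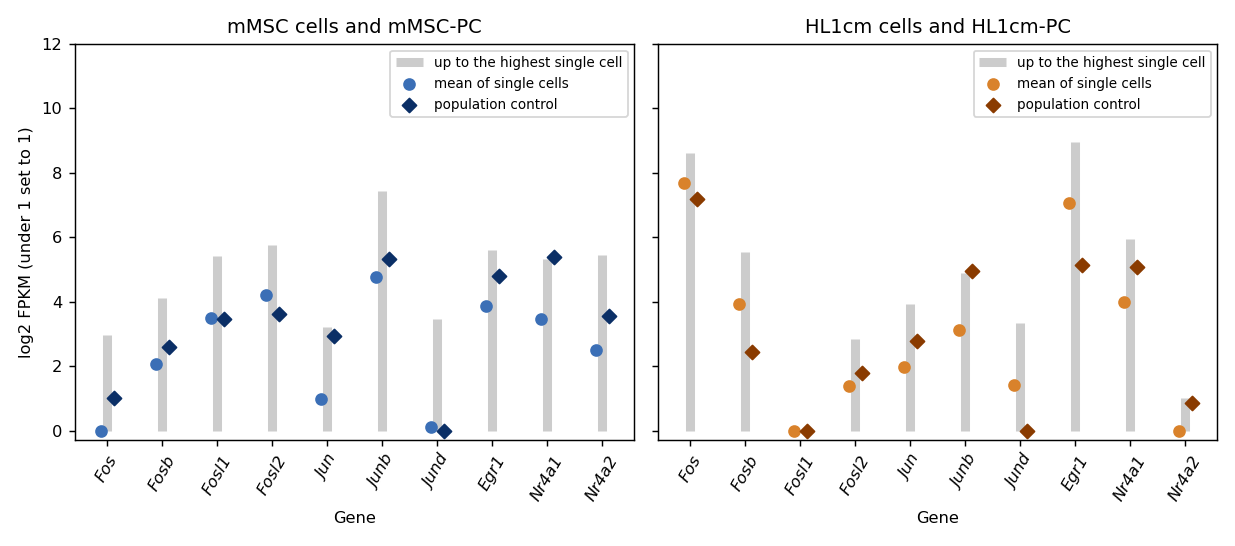
Log2 FPKM, with values under 1 set to 1 (y axis), of each gene (x axis) in the population control (diamonds) and as the mean FPKM of the single cells (circles), for mMSCs at left and HL1cm at right. Grey bars reach to the highest single cell. Nr4a1 in mMSC-PC and Junb in HL1cm-PC lie above every single cell of their type.

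The median spread of the members between mMSCs was above that of all genes, but not every member was above it. Their median SD on the log2 scale was 1.81 over the 9 members that reached 1 FPKM in 2 or more mMSCs, from 1.05 to 2.86, and the median over 10867 genes was 1.38. Jund (1.05), Fosl2 (1.11) and Jun (1.21) were below the median over all genes, and the others of the 9 members were above it. Without Fosl1 the members' median was 1.65. Without mMSC9 and mMSC15 it was 1.52 with Fosl1 kept, and the median over all genes was not recomputed for that setting. The median number of mMSCs at 1 FPKM or more was 10 for the 9 members and for the 10867 genes. Rank correlations between members were low. Over 21 pairs of the 7 members found in at least 8 mMSCs, the median Spearman correlation was 0.01 (16 cells, no test), and 11 pairs were above 0. The correlation was highest for Junb and Fosl1 (0.48) and lowest for Nr4a2 and Fosl1 (-0.40), and all cells share the library preparation. Over the 15 pairs without Fosl1 the median was 0.01 as well, the highest pair Nr4a1 and Fosl2 (0.43) and the lowest Fosl2 and Fosb (-0.22). The middle 50% of values between a member and 6770 other genes ran from -0.18 to 0.18. The number of members above 0 in a cell and its number of genes at 1 FPKM or more had a Spearman correlation of -0.04 over the 16 mMSCs.

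By the same measure, the genes most like Fosl2, the 1 member found in at least 12 mMSCs, were Arpp19 (0.83), Gpatch4 (0.72) and Ddx58 (0.72), out of 4678 genes compared over 16 cells. Arpp19 ranged from 9.26 to 58.4 FPKM in mMSCs, Gpatch4 from 8.74 to 138 and Ddx58 from 0 to 31.5.

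Other immediate early genes were counted in the same way. Of 38 listed, 32 could be compared, and 16 were at least 2-fold higher and 4 at least 2-fold lower in mMSCs, where 21.4% and 21.6% of all genes were. Their median difference was 1.01 against 0.08 over all genes. This list and those that follow were chosen with earlier results known, so their counts are descriptions. Sgk1, a serum- and glucocorticoid-induced kinase, was at 39.8 to 1217 FPKM (median 281) in mMSCs and at 0 to 19.1 FPKM in HL1cm, a difference of 5.38. Ctgf, a secreted matrix protein induced by serum, differed by 5.25, and Btg1, an antiproliferative gene, by 4.80. Btg1 was at 478 to 1465 FPKM in single mMSCs but at 29.8 FPKM in mMSC-PC. On the other side, Btg2, a relative of Btg1, differed by -3.97, Arc, a neuronal activity gene, by -2.85, and Ppp1r15a, a stress phosphatase subunit, by -1.79. Arc was at 2.03 to 28.6 FPKM in the HL1cm and at 121 FPKM in HL1cm-PC.

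Another 3 genes of this list are named after their values were seen. The third Nr4a receptor, Nr4a3, was listed at 0 in all 16 mMSCs, all 5 HL1cm and both controls. Egr2, a relative of Egr1, was above 0 in 4 mMSCs, at 15.1 FPKM at most, and in none of the HL1cm. Dusp1, an immediate early phosphatase, was found in 14 mMSCs with a median of 40.4 FPKM, and in 4 HL1cm at 28.6 to 76.7 FPKM.

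The next list held other basic leucine zipper genes, and only some of their proteins are known to pair with Fos or Jun. It gave 6 higher and 1 lower of 19 compared, beside 21.4% and 21.6% of all genes, with a median difference of 0.51. Maf was at a median of 119 FPKM in mMSCs and at 1.09 FPKM at most in HL1cm, a difference of 6.48. Ddit3, a stress factor, differed by 3.92 and Nfe2l2, the antioxidant regulator, by 3.38. Batf3, which pairs with Jun, was listed at 0 in all 16 mMSCs and mMSC-PC and reached 109 FPKM in HL1cm. Atf6 and Xbp1 differed by -0.83 and -0.06.

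Signalling genes upstream of this response gave 5 higher and 6 lower of 27, beside 21.4% and 21.6% of all genes, with a median difference of 0.17. Among those higher were Elk3 (2.38) and Map2k1 (2.24). Among those lower were Rps6ka1 (-2.47) and Srf (-1.31), the serum response factor. Srf was above 0 in 9 of 16 mMSCs with a median of 1.99 FPKM, and at 9.74 FPKM at the median of HL1cm. Of 14 heat shock genes, beside the same shares of all genes, 2 were higher (Hsph1 and Dnajb1, the latter by 1.00) and 2 lower (Hspb1, -4.26, and Dnaja1, -1.18). Hsph1, a large chaperone, was at medians of 49.3 FPKM in mMSCs and 15.1 FPKM in HL1cm. The other heat shock genes named by the rule, Hspa8 and Hsf1, differed by 0.90 and -0.34.

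Of 24 textbook targets of AP-1 that could be compared, 17 were at least 2-fold higher in mMSCs and 3 lower, where 21.4% and 21.6% of all genes were. The median difference was 3.50, and 9 were higher in every mMSC than in every HL1cm, where 2.26% of all genes were. Ccl2, a chemokine, was at 393 to 14526 FPKM in mMSCs and at 9.16 FPKM at most in HL1cm. Ptgs2, the inducible cyclooxygenase, was at 119 to 646 FPKM in mMSCs and listed at 0 in all 5 HL1cm. Cd44, the hyaluronan receptor, differed by 7.88. Krt18, a keratin of simple epithelia, differed by -6.29, and the metallothioneins Mt1 and Mt2 by -1.45 and -1.06. Many of these genes are also known as mesenchymal genes, and what part the members have in their levels was not tested.

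Some sequence features, which were not used to choose the members, were shared by several of them. Of the 10, 9 had a transcript GC content above the median of compared genes (49.7%), the exception being Nr4a2 at 47.9%. The Jun family genes each have 1 exon, as 2.02% of the 10219 genes do. The letters ATTTA, the core of AU-rich elements of short-lived messages, occurred 8 times in the 3' UTR of Fosl2 and 4 times in those of Fos and Jun. These 3' UTRs are 4653 bases long in Fosl2, 815 in Fos and 1233 in Jun, and the counts were not scaled by length. The median count over compared genes was 2. Of the 10 members, 5 had 3 or more, as 40.0% of the compared genes did, so this count was near the share of all genes.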

How the data were processed

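Single cells and bulk population controls were profiled by RNA-seq with paired reads of 75 bases. The authors aligned reads to mm10 with TopHat2 2.0.12 and estimated FPKM with Cufflinks 2.2.1 (submitters' processing notes). The deposited FPKM values for 23284 genes were used unscaled, so no count model was fitted. FPKM sums ran from 630240 to 2.53e+06 because a few very short genes took up to 1.35e+06 FPKM, which bears on rescaling to equal sums.

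Before logarithms were taken, 1 FPKM was used as the floor. Genes that reached it in 2 or more single cells were compared by mean log2 FPKM (mMSC minus HL1cm), without a test, with 2-fold as the limit. Population controls were compared with the mean FPKM of their cells. No p-values were computed. The calculation was tested on simulated data that held no zeros, with changes planted only in genes of high level. That test does not cover low genes with many zeros, as most members are.

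Every member is named. At most 6 genes of each other list are named: the 3 largest differences on each side among genes that reach 10 FPKM in 2 or more libraries. Others are marked in the text, and some genes that the rule names are not reported here. Members and lists were chosen with earlier results of these data known. The marker lists and the genes of general use came from that earlier work.

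Depth was estimated as the 95th percentile, over single-transcript genes longer than 1500 bases in GENCODE M21, of the fragments implied by an FPKM worth 1 fragment. The percentile was set after the values and the study's alignment statistics had been seen. Gene models came from GENCODE M21 and promoters from RefSeq (GRCm38.p6), matched by symbol. Python 3.11.15 was used, with SciPy 1.17.1 for intervals, pandas 2.3.3 and numpy 2.4.6 for tables, and matplotlib 3.10.9 for figures. Alternatives are given with the closing observations.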

Additional observations from a re-analysis of the deposited data

Results flagged for a closer look

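Nr4a2 in the HL1cm was marked because its highest cell, HL1cm5 at 2.02 FPKM, stood apart from the other 4, which were all listed at 0. The gap to the nearest cell was the whole range of the group, a ratio of 1, above Dixon's critical value of 0.71 for 5 samples. With values tied at 0, a single cell above 0 always gives this ratio. By the approximate depth, the value stood for under 3 fragments. The usual rate of about 1 in 20 groups marked by chance holds for continuous values and not for these ties.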

How the results depend on the processing

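Of 212 alternative values, 198 kept within the limits set for them and 14 moved. The limits were wide, since a member's difference could shift by up to its SD between cells. Only the difference of a member past 2-fold could be marked as reversed, and 0 were. For members below 2-fold, the sign differed between alternatives for Nr4a1 (-0.24 to 2.46), Jun (-0.69 to 0.30) and Jund (-0.89 to 0.006). With values under 10 FPKM set to 10, 0 members were at least 2-fold higher in mMSCs than in HL1cm, 1 was higher in mMSC-PC and 1 was lower in HL1cm-PC, the median SD between mMSCs was 0.69, and Fos, Fosl1 and Fosl2 differed by -4.13, 0.45 and 0.75. With libraries scaled by Gapdh, 0 members were higher and 2 lower in mMSC-PC, and 1 was higher in HL1cm-PC. With log2(FPKM + 1), 1 member, Jund, was lower in mMSC-PC. Leaving out each HL1cm in turn gave 1 to 3 members higher in HL1cm-PC, with 1 (Junb) without HL1cm3 or HL1cm5 and 3 (Fosl2, Jun and Junb) without HL1cm2. With equal sums (TPM), 6 members were higher in mMSC-PC. At 10 FPKM or more, 46 of the 83 member values above 0 in mMSCs remained. Equal sums (TPM), Gapdh and the median of genes found in all single cells, the last chosen after the data were seen, moved the median difference of all genes by 0.14, 0.14 and -0.13. The share of higher among 2-fold calls, 49.8%, was then 59.2%, 58.4% and 43.5%. Fos and Egr1 were at least 2-fold lower in mMSCs under all 12 alternatives, which include leaving out mMSC9 and mMSC15. No paired analysis was possible because no test was made and the cell numbers only name cells. By the approximate depth, 21 of the 83 values above 0 in mMSCs (25.3%) and 3 of 25 in HL1cm stood for under 3 fragments, so single values near 0 are imprecise.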
